A study of Mus musculus with 4 samples.

Results

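Small nucleolar RNA genes were examined in 4 RNA sequencing libraries of CAD cells, a mouse catecholaminergic neuronal line that becomes neuron-like without serum. The members were all rows of the expression table with a symbol of the form Snora or Snord followed by a digit, and there were 109 of them among 24341 genes, 36 Snora and 73 Snord. The rule reads symbols only, but the set itself was selected on its FPKM values in the ACSS2i and DMSO libraries, namely the many values at the lowest level and the adjusted p of the comparison between them, so these are given as a description. All cultures had spent 5 days without serum. The tested cultures received 20 µM of ACSS2i, a quinoxaline urea described as an inhibitor of the acetyl-CoA synthetase ACSS2, for 24 h, and the controls received its solvent DMSO for 24 h, with 2 libraries in each group. The libraries were made from polyadenylated RNA of this 1 cell line. Whether the replicates were cultured separately is not in the labels, and the spread behind each p-value may therefore be technical.

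Small nucleolar RNAs guide the chemical modification of ribosomal and spliceosomal RNA. Snord genes encode box C/D RNAs, which direct ribose methylation by fibrillarin, and Snora genes encode box H/ACA RNAs, which direct the conversion of uridine to pseudouridine by dyskerin. In mammals most are cut out of introns of host genes, many of them ribosomal protein genes, and the mature RNAs carry no poly(A) tail. The selection for poly(A) in these libraries therefore bears on every value below, and RNA from a mature small nucleolar RNA and from an unspliced or polyadenylated host transcript that contains it cannot be told apart here.

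The sequences of the genes on which the comparison turns are given from GENCODE M21 (mouse, GRCm38, the same assembly as the mm10 build of the submitters' processing notes), read 5′ to 3′ on the gene's own strand. In the Snora sequences the capitals mark the ACA element near the 3′ end, and in the Snord sequences they mark the motif TGATGA of box C and the motif CTGA of box D. Snora64 and Snora16a are the members that passed the test between groups, Snora70, Snora28 and Snord15b are members seen in DMSO libraries only, and Snord87 and Snora65 had the highest levels of their classes.
Snora64, chr17:24720772-24720905, plus strand: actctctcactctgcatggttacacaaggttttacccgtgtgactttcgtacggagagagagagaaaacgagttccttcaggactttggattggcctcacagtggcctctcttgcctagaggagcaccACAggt
Snora16a, chr4:132309464-132309600, plus strand: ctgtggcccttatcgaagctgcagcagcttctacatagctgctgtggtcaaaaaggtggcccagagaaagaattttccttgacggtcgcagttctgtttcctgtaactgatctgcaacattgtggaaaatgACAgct
Snora70, chrX:74272484-74272620, plus strand: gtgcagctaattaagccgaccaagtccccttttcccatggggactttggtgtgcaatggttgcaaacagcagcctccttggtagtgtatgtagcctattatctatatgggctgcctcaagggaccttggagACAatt
Snora28, chr12:111540941-111541067, plus strand: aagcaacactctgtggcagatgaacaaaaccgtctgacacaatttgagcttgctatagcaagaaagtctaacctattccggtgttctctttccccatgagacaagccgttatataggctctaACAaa
Snora65, chr2:32963291-32963420, plus strand: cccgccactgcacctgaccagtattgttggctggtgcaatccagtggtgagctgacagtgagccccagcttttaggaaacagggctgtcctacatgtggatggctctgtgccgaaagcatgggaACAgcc
Snord15b, chr7:99479563-99479707, minus strand: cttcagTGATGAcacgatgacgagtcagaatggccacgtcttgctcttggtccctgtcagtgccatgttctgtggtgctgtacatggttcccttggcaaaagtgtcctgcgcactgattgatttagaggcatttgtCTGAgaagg
Snord87, chr1:9942463-9942549, minus strand: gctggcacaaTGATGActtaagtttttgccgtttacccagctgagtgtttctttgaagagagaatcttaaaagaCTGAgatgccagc

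The annotated sequences fitted the classes given by the symbols. ACA stood in the last 10 bases of 34 of 36 Snora genes (94.4%) and of 7 of 72 Snord genes (9.72%). CTGA stood in the last 20 bases of 70 of the 72 Snord genes (97.2%) and of 4 of the 36 Snora genes, and TGATGA in the first 20 bases of 45 Snord genes (62.5%) and 0 Snora genes. Only the gene's own strand was searched, and none of these motifs contains another. As a background, GENCODE's 2202 miRNA transcripts held ACA in 19.2%, CTGA in 8.72% and TGATGA in 0.182% of the same windows. The 1398 GENCODE small nucleolar RNA transcripts outside the table's set held them in 48%, 32.8% and 20.2%. A total of 108 members matched GENCODE by symbol, and Snord116 did not.

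Most small nucleolar RNA genes had no value above the lowest one in the table, 0.01 FPKM (fragments scaled to transcript length and to sequencing depth), which stands in place of 0 and is called the floor. In the ACSS2i libraries 85 and 84 of the 109 members were at the floor (replicates 1 and 2), and in the DMSO libraries 77 and 91. Above the floor there were thus 24 and 25 members with ACSS2i and 32 and 18 with DMSO. Neither group stood apart: the highest and the lowest number were both DMSO libraries. The order of the libraries was that of their sequencing depth, read from genes of low value: relative to DMSO replicate 1 at 1, the depth was 0.857 in ACSS2i replicate 2, 0.675 in ACSS2i replicate 1 and 0.292 in DMSO replicate 2. The part of depth in these counts was not tested. Across the 4 libraries 71 members were never above the floor, 7 were above it in 1 library, 13 in 2, 6 in 3 and 12 in all 4.

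The 2 classes differed in how often they were seen. Of the Snora genes 25 of 36 (69.4%) were above the floor in at least 1 library, against 13 of 73 Snord genes (17.8%). In the ACSS2i libraries 55.6% and 55.6% of Snora genes were at the floor, and in the DMSO libraries 41.7% and 63.9%. For Snord genes these shares were 89% and 87.7% with ACSS2i and 84.9% and 93.2% with DMSO. Every library thus held a larger share of Snora than of Snord genes above the floor. Among the other short RNA genes in the table, 2 of 9 Scarna genes, the related guide RNAs of Cajal bodies, and 66 of 1159 Mir genes (5.69%) were above the floor in any library, against 71.9% of the 23051 genes that are no short RNA.

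**Figure D1:**
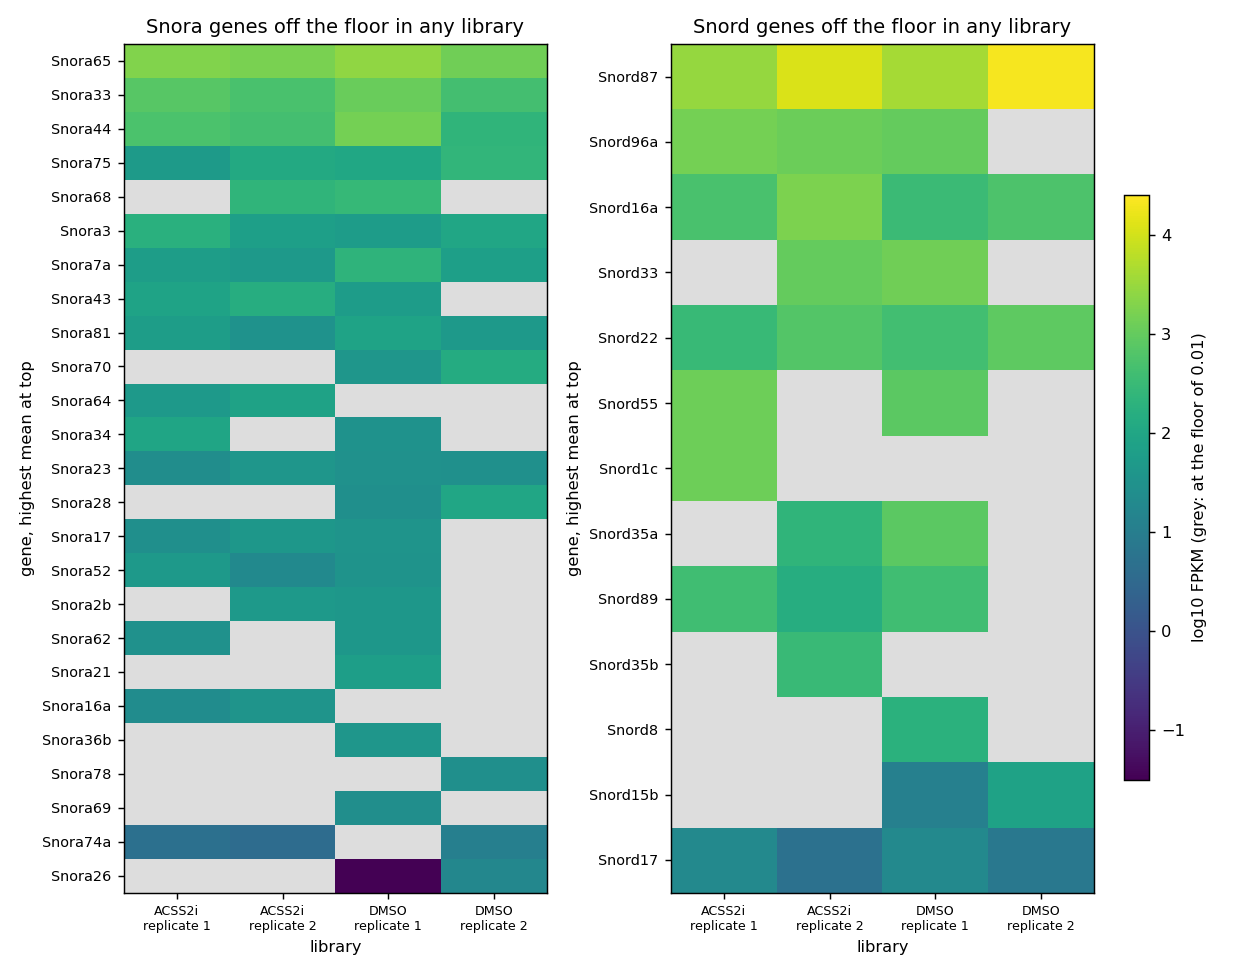
Level of each of the 38 small nucleolar RNA genes above the floor in any library (rows; 25 Snora on the left, 13 Snord on the right) in the 4 libraries (columns), as log10 FPKM by colour, with grey for the floor of 0.01 FPKM. Only 12 genes have a value in all 4 libraries, and DMSO replicate 2 has the most grey fields.

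Length ran along with the class. The median annotated length was 132 nt for Snora and 80 nt for Snord genes. Of the 61 members under 100 nt 8 (13.1%) were above the floor in any library, against 30 of the 47 members of 100 nt and over (63.8%). The share was 2 of 35 under 80 nt, 6 of 26 from there to under 100 nt, 2 of 6 to under 120 nt, 21 of 33 to under 140 nt and 7 of 8 above that. Within the Snord class the members above the floor had a median of 90 nt and the others one of 75 nt. Within the Snora class, which spans 121 to 196 nt, the medians were 134 and 130 nt. Class and length overlap too little to be separated: 0 Snora genes were under 120 nt, and 5 Snord genes were of 120 nt and over, of which 3 were above the floor.

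The highest Snord value belonged to Snord87, which lies in an intron of the noncoding host gene Snhg6. It stood at 2990 and 11774 FPKM in ACSS2i libraries and at 4037 and 20769 FPKM in DMSO libraries. Its value was the second highest of all genes in ACSS2i replicate 2 and in DMSO replicate 2 and ranked 21 and 15 in the other two, and the groups overlapped. Snord96a, in Rack1 (listed under the older name Gnb2l1), had 1491 and 1174 FPKM with ACSS2i and 1007 FPKM and the floor with DMSO. Snord16a, in the ribosomal protein gene Rpl4, had 497 and 1762 FPKM with ACSS2i and 336 and 575 FPKM with DMSO. Both ACSS2i values of Snord96a were above both DMSO values, and those of Snord16a overlapped with them.

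Snord22, in the host gene Snhg1, had 302 and 662 FPKM with ACSS2i and 408 and 856 FPKM with DMSO. Snord33, in Rpl13a, had the floor and 1040.3 FPKM with ACSS2i and 1337 FPKM and the floor with DMSO. Snord55 had 1234 FPKM and the floor with ACSS2i and 833 FPKM and the floor with DMSO. For Snord33 and Snord55 each group held 1 library at the floor and 1 at high FPKM, so the spread within each group was nearly as wide as the range over all libraries.

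Among the Snora genes Snora65, in Rpl12, was highest, at 1933 and 1670.4 FPKM with ACSS2i and 2641 and 1310 FPKM with DMSO. Snora33, in Rps12, had 734 and 505 FPKM with ACSS2i and 1114 and 425 FPKM with DMSO. Snora44, in Snhg12, had 543 and 427 FPKM with ACSS2i and 1465 and 228 FPKM with DMSO. In all 3 genes both ACSS2i values lay between the 2 DMSO values, of which that of replicate 1 was the higher. Snora75, in the nucleolin gene Ncl, had 51.7 and 122 FPKM with ACSS2i and 105 and 239 FPKM with DMSO. Snora68 had the floor and 226 FPKM with ACSS2i and 290 FPKM and the floor with DMSO, and Snora3, in Rpl27a, had 173 and 67.9 FPKM with ACSS2i and 58.2 and 99.9 FPKM with DMSO.

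The sum over the members was carried by a few genes. It came to 2.17% and 3.05% of all FPKM in the ACSS2i libraries and to 2.68% and 4.24% in the DMSO libraries. Snord87 alone made up 24.7% and 57% of the members' sum with ACSS2i and 25.5% and 83% with DMSO. Without it the share of all FPKM was 1.63% and 1.31% with ACSS2i and 1.99% and 0.721% with DMSO. The groups overlapped with and without Snord87, and DMSO replicate 2 was the highest library with it and the lowest without it.

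The members' values came in steps. When each value was multiplied by the relative depth of its library, 26 of the 31 members above the floor in at least 2 libraries (83.9%) stood at whole multiples of a common step, with no whole number above 12 and a tolerance of 1%. The same held for 1.46% of 11379 genes that are no short RNA, counted where the mean was 1 FPKM or more and at least 2 libraries were above the floor. Among Mir genes, the other large group of short RNA genes in the table, it held for 18 of 30 (60%). A fit is easier with 2 values than with more, and nearly all of the genes that are no short RNA had more. The limit of 12 also makes a fit hard for any gene with many fragments. The low share among genes that are no short RNA was thus partly fixed in advance. How often a fit arises by chance was not computed, so the shares are a description. With at least 3 libraries above the floor it held for 14 of 18 members (77.8%). The shares were then 1.42% of 11373 genes that are no short RNA and 9 of 20 Mir genes (45%). In 13 of the 26 members no library held more than 2 steps, and in 19 none held more than 4. The steps are the smallest whole numbers that fit, so a true number of fragments could be a multiple of them, and the depths were taken from genes of at most 0.5 FPKM. Snora3 had 4 and 2 steps with ACSS2i and 2 and 1 with DMSO, Snord87 1 and 5 with ACSS2i and 2 and 3 with DMSO, and Snord96a 1 and 1 with ACSS2i and 1 and 0 with DMSO.

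**Figure D2:**
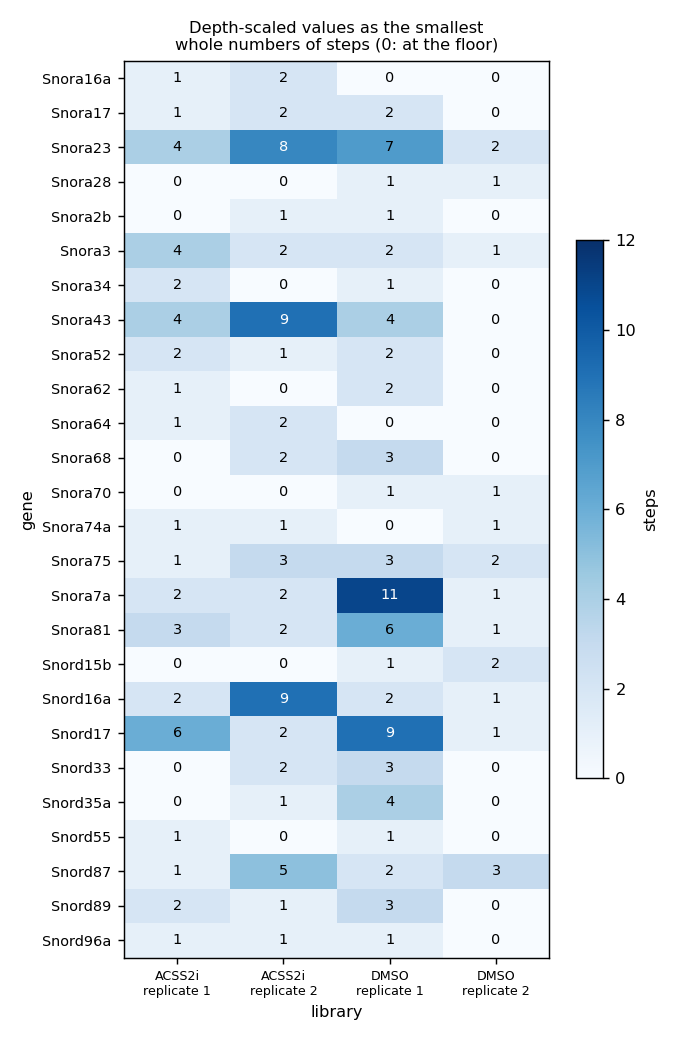
Depth-scaled values of the 26 small nucleolar RNA genes that stood at whole multiples of a common step, as the smallest whole numbers of steps in each library (colour and digit; 0 is the floor). Snora64 and Snora16a hold 1 and 2 steps in the ACSS2i libraries and 0 in the DMSO libraries, and Snora28 and Snora70 hold 0 in the ACSS2i libraries and 1 in each DMSO library.

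The size of a step fell with length. At the depth of DMSO replicate 1 the step was worth 2018 FPKM for Snord87 (87 nt), 1007 FPKM for Snord96a (81 nt) and 833 FPKM for Snord55 (79 nt). It was worth 29.1 FPKM for Snora3 (132 nt), 4.28 FPKM for Snora23 (184 nt) and 2.15 FPKM for Snord17 (238 nt). Over the 26 members Spearman's rho between length and step was -0.891, a description over genes that share the same libraries. The order was the same in sign within each class, with -0.644 over 17 Snora and -0.883 over 9 Snord genes. The smallest numbers of steps that fit were 1 to 5 for Snord87 and 2 to 8 for Snora23, and the fragments behind a step are not known for either gene.

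**Figure D3:**
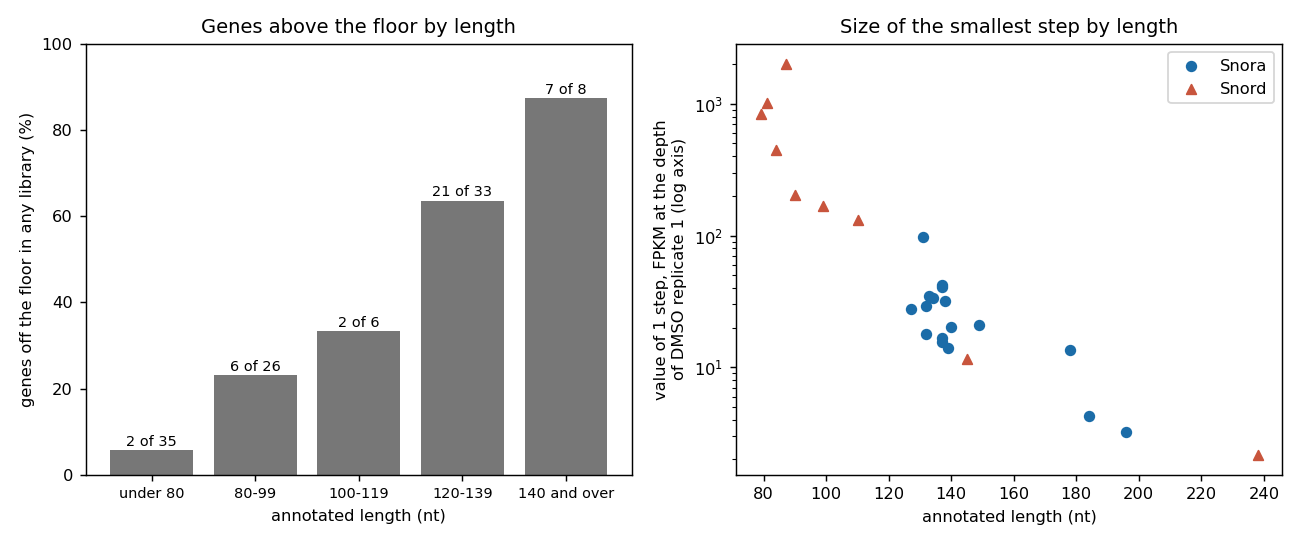
Left, share of the 108 annotated small nucleolar RNA genes above the floor in any library, by annotated length, with the counts over the bars. Right, value of 1 step at the depth of DMSO replicate 1 (FPKM, log axis) against annotated length for the 26 genes with whole-number steps, Snora as blue circles and Snord as red triangles; the step falls from 2018 FPKM at 87 nt to 2.15 FPKM at 238 nt.

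The comparison of ACSS2i with DMSO asked how the transcriptome differed when the enzyme was inhibited. Of the 109 members 38 reached the mean of 1 FPKM that the test required, every one of those seen in any library; 71 did not and were not tested. With limma on log2(FPKM + 1) and Benjamini-Hochberg adjustment over the 11486 genes tested, 2 members had an adjusted p under 0.05. Both were higher with ACSS2i, Snora64 and Snora16a. Both were at the floor with DMSO and reached the filter's mean through their ACSS2i values alone. The filter and the test thus drew on the same high values, and the 2 calls are a description. Over all genes tested 0.0174% were called higher and 0.00871% lower, 0.0261% in all, which is 2, 1 and 3 genes. The 2 genes called higher are these members themselves, so the shares are no independent background. At an unadjusted p under 0.05, 2 members were higher and 3 lower, where 3.29% and 3.67% of all genes tested were. Since the set was chosen with this comparison known, nothing is read from the members' count. After rescaling the libraries to equal sums over genes that are no short RNA, 2 members were higher and 1, Snora70, was lower, of 4 calls over all genes. The count was 3 without ACSS2i replicate 1 and 3 without ACSS2i replicate 2, of 38 and 17 calls over all genes. It was 12 without DMSO replicate 1 (7 higher and 5 lower) and 8 without DMSO replicate 2 (2 higher and 6 lower), of 29 and 22 calls over all genes. In bulk RNA, fewer expressing cells and less RNA per cell cannot be told apart.

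Snora64, in the ribosomal protein gene Rps2, was at 49.3 and 77.7 FPKM with ACSS2i and at the floor in both DMSO libraries (adjusted p = 0.0106 by limma, the smallest p of all genes). Snora16a, in the noncoding host gene Snhg12, was at 23.2 and 36.5 FPKM with ACSS2i and at the floor in both DMSO libraries (adjusted p = 0.02 by limma). In steps, both genes held 1 and 2 with ACSS2i and 0 and 0 with DMSO, where the spread between the replicates is 0 because both stand at the floor. No fold is given against a group listed at 0, and the differences of 5.96 ± 0.29 and 4.90 ± 0.30 (SE) on the log2(FPKM + 1) scale depend on the pseudocount. With a pseudocount of 5 or without the filter both calls were lost, with adjusted p by limma of 0.0624 and 0.742 for Snora64 and of 0.106 and 0.742 for Snora16a, and with a filter of 5 FPKM that of Snora16a was 0.0569.

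Members with the opposite pattern, which reached the filter's mean through their DMSO values alone, did not pass. Snora70, in Rpl10, was at the floor in both ACSS2i libraries and at 40.4 and 138 FPKM with DMSO (adjusted p = 0.0873 by limma). Snora28, in the translation factor gene Eif5, was at the floor in both ACSS2i libraries and at 27.9 and 95.6 FPKM with DMSO (adjusted p = 0.114 by limma). Both held 0 and 0 steps with ACSS2i and 1 and 1 with DMSO, so that the same number of steps gave the higher FPKM in DMSO replicate 2, the shallower library. Snord15b, in Rps3, was at the floor in both ACSS2i libraries and at 11.7 and 79.9 FPKM with DMSO, or 1 and 2 steps (adjusted p = 0.319 by limma). Snora28 and Snora70 passed with a pseudocount of 0.1 (adjusted p = 0.0153 and 0.0109 by limma), a setting in which Snora64 and Snora16a passed as well, so the number of calls was then 2 in each direction.

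In all, 4 members had both ACSS2i values above both DMSO values and 5 had them below, and in 29 the groups overlapped. Among the genes tested, 19% lay above and 18.3% below, 37.3% in all. The members above were Snora64, Snora16a, Snora43 (83.8 and 148 FPKM with ACSS2i, 56.5 FPKM and the floor with DMSO) and Snord96a. The members below were Snora28, Snora70, Snord15b, Snora7a and Snora26. Snora7a, in Rpl32, had 59.8 and 47.1 FPKM with ACSS2i and 222 and 69.2 FPKM with DMSO (log2 difference -1.21 ± 0.54, SE). Snora26, in Dancr, was at the floor in both ACSS2i libraries and at 0.0321 and 17.3 FPKM with DMSO, where the lower value is far below the 27.9 FPKM that a step is worth for Snora28, a gene of similar length. After the rescaling 4 members lay above and 9 below. The shares over all genes were not counted at that setting, where the median log2 difference of all genes went from 0.02 to -0.065. Nothing about the members is therefore read from these 2 counts.

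**Figure D4:**
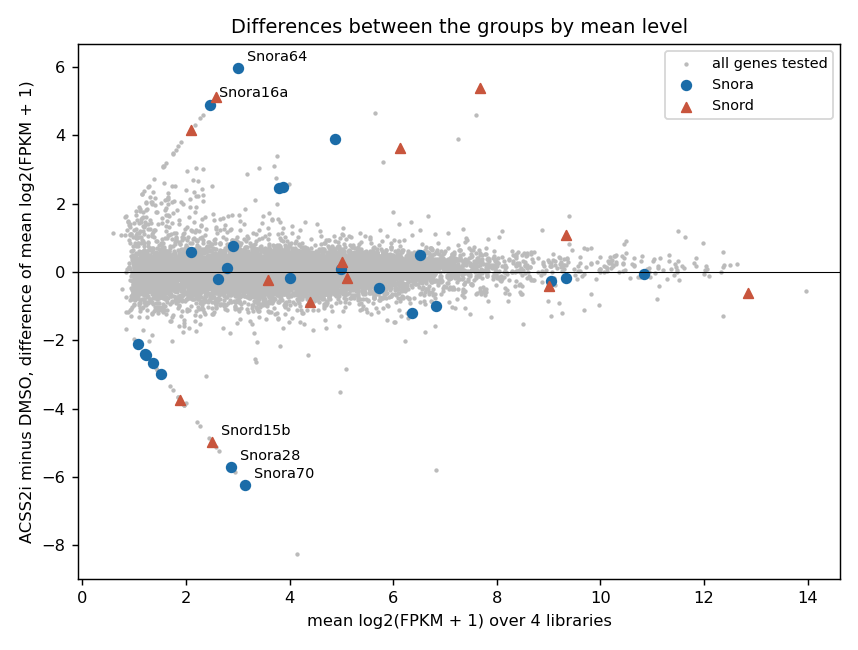
Difference between ACSS2i and DMSO in mean log2(FPKM + 1) against the mean over the 4 libraries for the 11486 genes tested (grey), with 25 Snora (blue circles) and 13 Snord genes (red triangles). The members run from -6.23 (Snora70) to 5.96 (Snora64), and the 12 above the floor in all 4 libraries from -1.21 to 1.09. The labelled genes Snora64, Snora16a, Snora70, Snora28 and Snord15b are at the floor in every library of 1 group. Snord96a and Snora43, with differences of 5.38 and 3.88, are at the floor in DMSO replicate 2 only.

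Among the 38 tested members the median log2 difference was -0.18, against 0.02 over all genes tested. The median was -0.88 without DMSO replicate 2 and 0.89 without DMSO replicate 1, so its sign rested on which DMSO library was used. The median SE was 1.33 over the members and 0.28 over all genes. In the 12 members above the floor in all 4 libraries, where no value is a stand-in for 0, 3 differences were positive and 9 negative, from -1.21 to 1.09 with a median of -0.26. Their smallest adjusted p by limma was 0.751.

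Agreement between libraries was lower across all 109 members than across the other genes tested, and the members' pairs within a group did not stand apart from pairs across groups. Pearson's r, computed on log2(FPKM + 1) across the 109 members, 71 of which are at the floor throughout, came to 0.729 for the ACSS2i pair and 0.621 for the DMSO pair. Between groups it was 0.730 and 0.609 for ACSS2i replicate 1 with DMSO replicates 1 and 2, and 0.795 and 0.617 for ACSS2i replicate 2. The 3 pairs with DMSO replicate 2, the shallowest library, were the lowest. Over the 11381 tested genes that are no short RNA, r was 0.942 within ACSS2i, 0.975 within DMSO and 0.946 to 0.954 between groups. These genes passed the filter of 1 FPKM, which was not applied to the members here. Over genes above the floor in both libraries of a pair, r was 0.814 to 0.970 for members and 0.942 to 0.976 for the others. It was lower for members in all pairs but ACSS2i replicate 2 with DMSO replicate 2 (0.970 against 0.950). Taken by class, r over the 36 Snora genes was 0.797 within ACSS2i, 0.598 within DMSO and 0.519 to 0.706 between groups, and over the 73 Snord genes it was 0.655, 0.578 and 0.591 to 0.826. The SD of the log2 difference was 2.40 within ACSS2i, 2.81 within DMSO and 2.18 to 2.73 between groups for the members, and 0.63, 0.401 and 0.544 to 0.608 for the other genes.

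The sets of members above the floor overlapped in the same way. The ACSS2i libraries shared 20 members, 83.3% of those in replicate 1 and 80% of those in replicate 2, and the DMSO libraries shared 16, 50% of those in replicate 1 and 88.9% of those in replicate 2. ACSS2i replicate 1 shared 20 with DMSO replicate 1 (83.3% of its own members and 62.5% of those of the DMSO library), and ACSS2i replicate 2 shared 21 (84% and 65.6%). Each ACSS2i library shared 13 with DMSO replicate 2, 72.2% of the members of that library.

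Host genes were found for 104 members, in 77 hosts, of which 101 members had a host with a value in the table. Genes of ribosomal proteins hold 32 of the 109 members, among them 17 of the 38 above the floor. The mean level of the host had a median of 617 FPKM for the members above the floor and of 199 FPKM for the others, and the ranges overlapped, from 1.93 to 4112 FPKM and from 0.01 to 5908 FPKM. By class the medians were 431 and 199.3 FPKM for Snora hosts and 864.3 and 199 FPKM for Snord hosts. Rpl23a, the highest host at 5908 FPKM, holds Snord42a, Snord42b and Snord4a (65, 69 and 71 nt), all at the floor in every library. The part of host level was not tested. Of the 4 members in Snhg12, Snora44 was above the floor in all libraries and Snora16a in 2, while Snora61 and Snord99 were at the floor in all. The annotation places 12 of the 25 Snora genes seen in exons of retained-intron transcripts of the host, 4 in other exons and 7 in introns only, with no host found for 2; for the 13 Snord genes seen these numbers were 5, 2 and 6. Of the 11 Snora genes never seen, 2 lie in exons of retained-intron transcripts, 2 in other exons and 7 in introns only, and of the 60 Snord genes never seen 16, 9 and 32, with no host found for 3.

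The hosts of the called members were not called themselves. Rps2, host of Snora64, had 376 and 611 FPKM with ACSS2i and 346 and 326 FPKM with DMSO (log2 difference 0.51 ± 0.33, SE; adjusted p = 0.811 by limma). Snhg12, host of Snora16a, had 712 and 242 FPKM with ACSS2i and 458 and 312 FPKM with DMSO, and the groups overlapped. For Snora44, in the same host, the order of the libraries was not that of Snhg12. Rpl10, host of Snora70, had 1789 and 2426 FPKM with ACSS2i, both above the 2 DMSO values, while Snora70 lay below. Of the 31 hosts tested for members above the floor, 0 passed an adjusted p of 0.05 by limma and 0 an unadjusted p of 0.05. In 5 both ACSS2i values were above both DMSO values and in 1 below, where 19% and 18.3% of all genes tested were.

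The proteins that bind and process these RNAs were well above the floor in every library. Fibrillarin (Fbl), the methyltransferase of box C/D particles, had 109 and 146 FPKM with ACSS2i and 81.2 and 98.3 FPKM with DMSO (log2 difference 0.50 ± 0.27, SE). Nop56, a core scaffold of the same particle, had 253 and 196 FPKM with ACSS2i and 270 and 309 FPKM with DMSO (log2 difference -0.38 ± 0.28, SE). The groups did not overlap for either, as in 37.3% of all genes tested, and the adjusted p by limma was 0.791 and 0.824. Nop58 and Nhp2l1 (Snu13), the other core proteins of that particle, had log2 differences of 0.25 and -0.09, with overlapping groups. Dyskerin (Dkc1), the pseudouridine synthase of box H/ACA particles, had 35.7 and 30.5 FPKM with ACSS2i and 22.0 and 30.4 FPKM with DMSO. Its partners Nop10, Nhp2 and Gar1 had log2 differences of -0.10, 0.11 and 0.09. For Dkc1 and Nhp2 both ACSS2i values were above both DMSO values, and for Nop10 and Gar1 the groups overlapped.

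Of the 31 genes listed for the core particles, their assembly and the trimming of intronic RNAs, 0 passed an adjusted p of 0.05 by limma, with adjusted p from 0.791 to 0.992, and 0 an unadjusted p of 0.05, where 6.96% of all genes tested did. The log2 difference was positive in 26 and negative in 5, with a median of 0.19 against 0.02 over all genes tested. Over all genes tested it was positive in 5996 and negative in 5490. Both ACSS2i values were above both DMSO values in 9 of the 31 and below in 1, where 19% and 18.3% of all genes tested were. Ruvbl1, Ruvbl2 and Exosc10, given below, are among the 9. In the assembly list, all 13 differences were positive, from 0.03 to 0.51 with a median of 0.18, and the groups overlapped in all but 3. Ruvbl1 and Ruvbl2, ATPases of the assembly complex, had 56.0 and 74.7 FPKM and 30.2 and 48.6 FPKM with ACSS2i, against 38.5 and 53.1 FPKM and 24.7 and 29.5 FPKM with DMSO. In the trimming list, Exosc10, a nuclease of the nuclear exosome, had 41.4 and 36.3 FPKM with ACSS2i and 26.4 and 31.0 FPKM with DMSO.

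The cell type was checked on marker genes. All 7 neuronal markers (Tubb3, Map2, Syn1, Syp, Gap43, Stmn2 and Snap25) had 13.1 to 436 FPKM in every library. Of the catecholaminergic markers Th had 2.92 to 4.09 FPKM and Dbh, which makes noradrenaline, 0.226 to 0.624 FPKM. The 14 markers of glia, endothelium, macrophages and fibroblasts reached at most 2.92 FPKM, with Col1a2 at the floor in all libraries, and summed to 7.83 and 7.67 FPKM with ACSS2i and 7.06 and 6.54 FPKM with DMSO.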

How the data were processed

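Polyadenylated RNA from CAD cells was sequenced in 2 ACSS2i and 2 DMSO libraries. Per the submitters' processing notes the tools were Cufflinks 2.2.1, Cuffdiff, STAR 2.3.0 and bcl2fastq 02.14.01.07, with mm10. No source used here gives the annotation, the strand setting or the adjustment in the table's name. The deposited values were taken as FPKM because those notes name Cufflinks, and the header names no unit. The depth in fragments is unknown; relative depth was read from the ratio to DMSO replicate 1 that recurs most often in genes of at most 0.5 FPKM. Sept7, with a failure mark in 1 library, was left out of the tests, leaving 24340 genes.

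Values were tested as log2(FPKM + 1) for genes averaging 1 FPKM or more, with limma 3.58.1 (R 4.3.3; mean-variance trend, two-sided, Benjamini-Hochberg over 11486 genes). For a single gene, the smallest exact permutation p with these groups is 0.333. Scripts were tested on simulated data. Hosts are genes of GENCODE M21 whose span holds the member on the same strand. For 2 members with a pair of entries the first was taken, ordered by type, chromosome and start. Reads from near-identical copies, from hosts or from antisense genes may be split between genes. Tables were handled with Python 3.11.15.

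Members and lists were chosen with earlier results of these data known. Genes named were members with adjusted p under 0.05 or unadjusted p under 0.05, the 6 highest of each class, members without overlap between groups (up to 8 each way), core particle proteins and hosts. Others were named after their values were seen: Snora23, Snord17, Snora61, Snord99, Snord116, Snord42a, Snord42b, Snord4a, Rpl23a, Ruvbl1, Ruvbl2 and Exosc10. Alternatives were the pseudocount, the filter, rescaling, quantile normalization, limma without trend, a replicate block and leaving out each library. Some host genes and 1 sequence are not reported here.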

Additional observations from a re-analysis of the deposited data

How the results depend on the processing

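The number of members with adjusted p under 0.05 by limma was 2 as reported, with quantile normalization and without the trend. Each of these settings gave 3 calls over all genes. The number was 3 after rescaling (of 4 calls over all genes), 4 at pseudocount 0.1 (of 6) and 1 with a filter of 5 FPKM (of 2). At pseudocount 5 and when no filter was used it was 0, with 0 calls over all genes. Leaving out a library gave 3 to 12, the most without DMSO replicate 1, of 17 to 38 calls over all genes; here only the complete group gives a spread, and the lone library is assumed to vary like it. With a replicate block it was 4 (of 8 calls over all genes), adding Snora28 and Snora70 as lower. The numbers are not known to pair the libraries: the correlation of the differences between replicates 1 and 2 in the 2 groups was -0.017 over 11486 genes. Members whose groups do not overlap numbered 9 as reported and 16 to 25 when a library was left out, where groups of 1 overlap less by construction. The members' median log2 difference was 0 without a filter, -0.274 after rescaling and -0.876 to 0.887 when a library was left out. Pearson's r over members above the floor in both libraries of a pair was 0.929 within ACSS2i, 0.814 within DMSO, and 0.933, 0.906, 0.885 and 0.970 between groups. None of the 31 particle protein genes passed in any of these settings, and floor counts changed by at most 1 member when values up to 0.1 FPKM counted as floor.

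In 9 of the named members that did not pass, the sign of the log2 difference turned when a library was left out. Their range was -0.165 to 1.167 for Snora3, -0.870 to 0.519 for Snora33, -1.603 to 1.073 for Snora44, -0.555 to 0.456 for Snora65 and -4.267 to 3.906 for Snora68. It was -0.965 to 0.162 for Snord22, -5.367 to 5.005 for Snord33, -4.845 to 5.411 for Snord55 and -1.807 to 0.556 for Snord87. The cause was not tested. In the other 9 named members that did not pass, the sign did not turn, which in 7 of them follows from groups that do not overlap; Snora26 was below the filter without DMSO replicate 2.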
